A study of Homo sapiens with 12 samples.

Results

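U87 cells that had received both siRNA against BCL3 and temozolomide (TMZ) were compared with U87 cells that had received neither, and the joint effect was set beside the sum of the effects of each treatment given alone. The comparison was chosen by the sample titles and rested on 6 of the 12 arrays of the study, 3 for the combination (siBCL3 TMZ) and 3 for the untreated state (siCtrl DMSO). The other 6 arrays, 3 of knockdown alone (siBCL3 DMSO) and 3 of drug alone (siCtrl TMZ), supplied the single effects. U87 is an established human glioma cell line. All cells were transfected with an siRNA, either against BCL3 or a control siRNA, and were then given TMZ at 100 µM for 24 h or DMSO, the solvent. Every group therefore holds transfected cells of 1 line, and nothing in the labels says whether the 3 samples of a group came from separate cultures, so the p-values reflect only how far these samples vary, and that variation may be technical. Of 47320 probes on each Illumina bead array, 18105 were detected at p under 0.01 on at least 3 of the 12 arrays, and these represented 10686 named genes. The series title names the question as resistance to chemotherapy mediated by BCL3.

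BCL3 belongs to the I-kappa-B proteins but differs from the classical inhibitors among them. It works in the nucleus, where it binds homodimers of the NF-kB subunits p50 and p52 and changes the transcription of their target genes, among them genes of proliferation and inflammation. TMZ is an alkylating drug given against glioblastoma. It methylates guanine in DNA, and in cells that do not remove this lesion, mismatch repair turns it into strand breaks that activate the p53 pathway, with arrest of the cell cycle through p21.

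Before normalization the siCtrl DMSO arrays were brighter than every siBCL3 DMSO and siCtrl TMZ array and overlapped with the siBCL3 TMZ arrays. Mean raw intensity was 267 ± 22.1 on siBCL3 TMZ arrays, 247.8 ± 15.8 on siBCL3 DMSO arrays, 262 ± 1.42 on siCtrl TMZ arrays and 292.2 ± 25.8 on siCtrl DMSO arrays (SD, n = 3 each), and between 16381 and 17839 probes were detected per array. The part of raw brightness in the results was not tested. Arrays of 1 group correlated at 0.9956 or more. Levels below are normalized log2 intensities, which compare arrays for 1 gene and not genes with each other. Differences are log2 fold changes with the limma standard error after the ± sign, each between 3 and 3 arrays, and a gene is said to have risen or fallen where its Benjamini-Hochberg adjusted p from limma over all 10686 genes was under 0.05. The joint effect and both single effects share the 3 siCtrl DMSO arrays, so their values are set side by side and are not independent of each other.

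The knockdown itself was visible in the BCL3 transcript with and without the drug. BCL3 measured 6.57, 6.53 and 6.54 on siBCL3 TMZ arrays and 6.41, 6.28 and 6.46 on siBCL3 DMSO arrays. It measured 7.26, 7.28 and 7.36 on siCtrl TMZ arrays and 7.47, 7.38 and 7.25 on siCtrl DMSO arrays. The arrays with BCL3 siRNA all lay below the arrays with control siRNA, and drug-treated and solvent-treated arrays of the control siRNA overlapped. With BCL3 siRNA the drug-treated arrays all lay above the solvent-treated ones, a difference of 0.16 that did not pass the test (limma adjusted p = 0.297). The joint effect on BCL3 was -0.82 ± 0.07 (limma adjusted p = 1.43e-06), beside -0.98 with knockdown alone and -0.07 with TMZ alone (adjusted p = 0.696). It lay 0.23 above the sum of the single effects (95% interval 0.02 to 0.44, adjusted p = 0.733). MGMT, the enzyme that removes methyl groups from guanine, had 1 probe, which was detected on 0 arrays, and was not tested.

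Together the treatments changed the transcripts of a large part of the genome. Against siCtrl DMSO cells, 2294 genes rose and 2197 fell in siBCL3 TMZ cells, 42% of the genes tested, with a median size of 0.36 log2 units among them. At least a 2-fold change was reached by 30 of the genes that rose and 81 of the genes that fell. Knockdown alone changed 40.8% of genes (20.7% rose, 20.1% fell) and TMZ alone 0.861% in the same model. The sum of the single effects passed the test for 19.4% of genes, with 9.93% above and 9.51% below 0, at a larger standard error. Relative to siBCL3 DMSO cells 1.06% of genes changed in siBCL3 TMZ cells (0.599% rose), and relative to siCtrl TMZ cells 38.8% changed. Single arrays weighed on the smaller counts: the 92 genes of TMZ alone were 36, 44, 38 and 47 without siCtrl TMZ replicate 1 or 2 or siCtrl DMSO replicate 1 or 2, and the 2077 of the sum were 1113 and 1241 without siCtrl DMSO replicate 1 or 2. The 113 genes that differed from siBCL3 DMSO cells were 56 and 54 without siBCL3 DMSO replicate 1 or 2, 60 and 67 without siBCL3 TMZ replicate 1 or 3, and 70 without siCtrl TMZ replicate 2. The 3 arrays of each group did not overlap for 4336 of the 4491 genes called, beside 51.8% of all genes. Counted by probe, 38.9% of detected probes with a symbol changed jointly, and 32.9% of those without one. The balance of rises and falls depended on the scaling of the arrays: with median scaling in place of quantile normalization 569 rose and 2814 fell jointly, where the median of all genes lay at -0.14, and 244 rose and 4758 fell with knockdown alone, where it lay at -0.26.

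The largest joint rise was that of HMOX1, the inducible haem oxygenase that breaks haem down in oxidative stress. HMOX1 measured 13.30, 13.39 and 13.22 on siBCL3 TMZ arrays and 13.39, 13.33 and 13.35 on siBCL3 DMSO arrays. It measured 11.11, 11.12 and 11.23 on siCtrl TMZ arrays and 11.18, 11.26 and 11.14 on siCtrl DMSO arrays. The arrays fell into a high set with BCL3 siRNA and a low set with control siRNA, and within each set TMZ and DMSO arrays overlapped. Its level was 4.33-fold higher in siBCL3 TMZ cells than in siCtrl DMSO cells (log2 2.11 ± 0.06, limma adjusted p = 3.05e-10), beside log2 2.16 with knockdown alone and -0.03 with TMZ alone.

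Among the other 11 of the 12 largest rises, 6 did not pass the test with TMZ alone. CDK6, a kinase that drives the cell from G1 into S phase, rose by 1.75 jointly and by 1.91 with knockdown alone, beside -0.11 with TMZ alone, which was not called. EIF4EBP2, which holds the cap-binding factor eIF4E back from translation, had 1.40 jointly, 1.43 with knockdown and 0.04 with TMZ. STX3, a syntaxin of membrane fusion, DUSP5, a nuclear phosphatase of ERK, and YOD1, a deubiquitinase, had joint effects of 1.32, 1.28 and 1.27, and none of the 3 passed the test with TMZ alone. FBXO32, a ubiquitin ligase subunit of muscle atrophy, rose by 1.47 jointly, beside 1.23 with knockdown alone and 0.28 with TMZ alone (adjusted p = 0.14).

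Most of the large falls were of like size with knockdown alone. FKBP1A, the binding protein of the drugs FK506 and rapamycin, fell furthest by its brightest probe. It measured 8.14, 8.19 and 7.84 on siBCL3 TMZ arrays, 8.43, 8.41 and 8.53 on siBCL3 DMSO arrays, 9.80, 10.01 and 10.20 on siCtrl TMZ arrays and 10.42, 10.23 and 10.23 on siCtrl DMSO arrays. The siBCL3 TMZ arrays were the lowest, with no overlap with any other group, and the joint effect was -2.24 ± 0.11 (limma adjusted p = 1.56e-08). A pair of further FKBP1A probes gave -2.19 and -1.86, and a dimmer one gave 0.17 (adjusted p = 0.0459), the opposite direction.

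G3BP2, a component of stress granules, fell jointly (-1.94) and with knockdown alone (-1.83). GLO1, which detoxifies methylglyoxal (-1.70), ABCF2, an ABC protein without a membrane domain (-1.62), TRIM5, a restriction factor against retroviruses (-1.51), and PRKAR1A, the regulatory subunit that restrains protein kinase A (-1.49), fell as well. So did TCEAL9 (-1.53), LRRC58 (-1.52), VOPP1 (-1.49) and the sialyltransferase ST8SIA5 (-1.49). None of these 9 genes passed the test with TMZ alone, where their values lay between -0.18 and 0.11. For TRIM5, 1 further probe gave -0.72 and another -0.29 (adjusted p = 0.057). Further probes gave smaller falls for ABCF2 (-0.55), TCEAL9 (-0.63) and PRKAR1A (-0.73), each past the threshold. Those of G3BP2 (-2.03 and -2.22), LRRC58 (-1.46) and VOPP1 (-1.40) gave falls of like size.

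**Figure D1:**
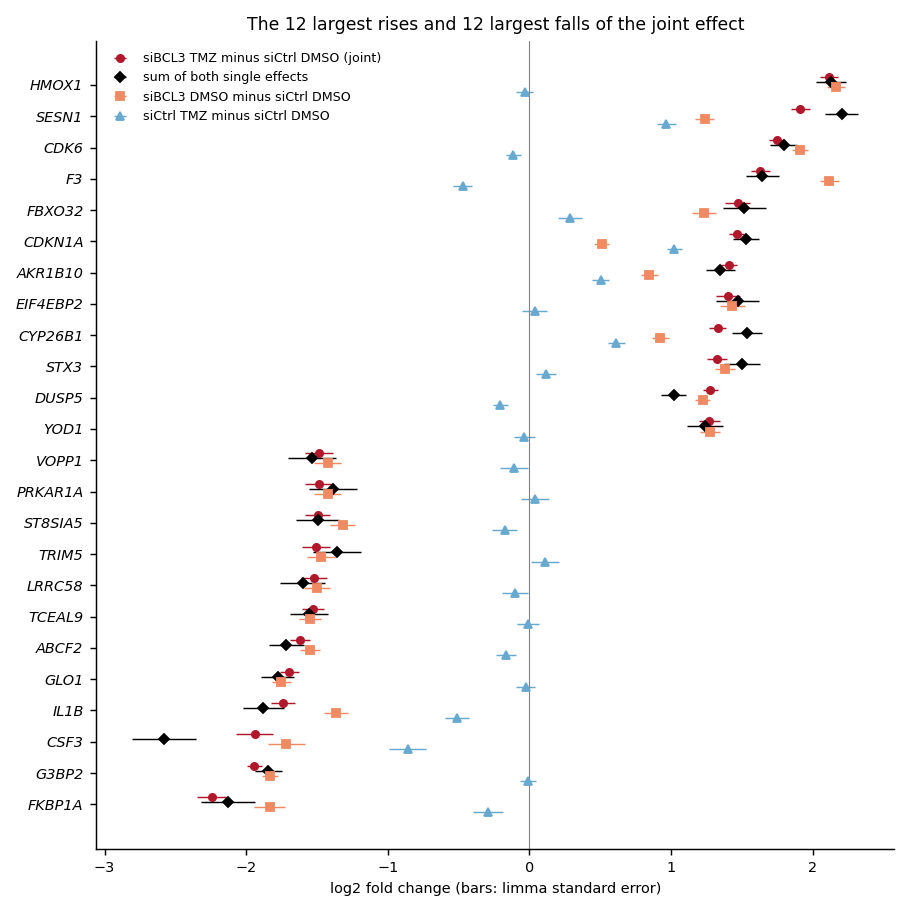
Log2 fold changes against siCtrl DMSO cells (horizontal axis, with limma standard errors) of the 12 genes with the largest joint rise and the 12 with the largest joint fall. Red circles are siBCL3 TMZ, black diamonds the sum of both single effects, orange squares siBCL3 DMSO and blue triangles siCtrl TMZ; for most genes circle, diamond and square lie together and the triangle lies near 0, while SESN1, CDKN1A, AKR1B10, CYP26B1, F3, IL1B and CSF3 have triangles away from 0.

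Targets of p53 had the largest share of joint rises among the 21 lists, 68.8%. These genes carry out the response to DNA damage: CDKN1A encodes p21, the inhibitor that stops the cell in G1, SESN1 a sestrin that damps mTOR signalling, PPM1D the phosphatase that switches p53 off again, GDF15 a secreted stress cytokine, FAS and TNFRSF10B death receptors, and BAX the pore-forming protein of apoptosis. Of 32 targets tested, 22 rose and 1 fell in siBCL3 TMZ cells, where 21.5% of all genes rose and 20.6% fell, and the median was 0.49, beside 0.01 over all genes. With knockdown alone 12 rose and 2 fell, where 20.7% of all genes rose, and with TMZ alone 11 rose, where 0.468% of all genes rose, and 0 fell by limma (25 above and 0 below at an unadjusted p under 0.05). Relative to siBCL3 DMSO cells 13 of the 32 rose in siBCL3 TMZ cells, where 0.599% of all genes rose. Relative to siCtrl TMZ cells 12 rose and 3 fell, where 18.6% of all genes rose and 20.2% fell. Under median scaling 15 rose and 2 fell jointly, where 569 of all 10686 genes rose and 2814 fell. With knockdown alone 6 rose and 9 fell under that scaling, where 244 of all genes rose and 4758 fell. Relative to the median of all genes, the median of the list with knockdown alone was 0.08 under median scaling and 0.10 under quantile normalization, and jointly it was 0.43 and 0.48.

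CDKN1A took part of its joint rise from each treatment. It measured 12.40, 12.39 and 12.35 on siBCL3 TMZ arrays and 11.38, 11.42 and 11.48 on siBCL3 DMSO arrays. It measured 11.97, 11.90 and 11.94 on siCtrl TMZ arrays and 10.92, 10.88 and 10.94 on siCtrl DMSO arrays. The 4 groups did not overlap, with siBCL3 TMZ cells highest and siCtrl DMSO cells lowest. The level in siBCL3 TMZ cells was 2.76-fold that in siCtrl DMSO cells (log2 1.46 ± 0.05, limma adjusted p = 1.57e-09), beside 0.51 with knockdown and 1.02 with TMZ.

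SESN1 measured 7.67, 7.58 and 7.73 on siBCL3 TMZ arrays, 6.88, 7.02 and 7.06 on siBCL3 DMSO arrays, 6.74, 6.68 and 6.72 on siCtrl TMZ arrays and 5.68, 5.73 and 5.84 on siCtrl DMSO arrays. Its groups did not overlap either, and its joint effect of 1.91 ± 0.07 (limma adjusted p = 1.57e-09) stood beside 1.24 with knockdown and 0.96 with TMZ. PPM1D rose by 1.26 ± 0.08 jointly, by 0.73 with knockdown and by 0.47 with TMZ. 

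GDF15 followed the drug and not the knockdown. It measured 7.17, 7.13 and 7.15 on siBCL3 TMZ arrays and 6.12, 6.01 and 6.21 on siBCL3 DMSO arrays, against 7.45, 7.39 and 7.28 on siCtrl TMZ arrays and 6.02, 6.01 and 6.02 on siCtrl DMSO arrays. Both TMZ groups were high, siBCL3 TMZ below siCtrl TMZ without overlap, and the DMSO groups overlapped at the lower edge of siBCL3 DMSO. The joint effect was 1.13 ± 0.06 (limma adjusted p = 5.53e-08), beside 0.09 with knockdown (adjusted p = 0.268) and 1.35 with TMZ, and siBCL3 TMZ cells lay -0.22 from siCtrl TMZ cells (adjusted p = 0.0163). 

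BAX rose by 1.24 ± 0.21 jointly (limma adjusted p = 0.000508), with 0.96 for knockdown and 0.93 for TMZ (adjusted p = 0.0681). A dimmer BAX probe gave a joint rise of 0.69. MDM2, the ubiquitin ligase that degrades p53, had a joint effect of 0.25 ± 0.12 (adjusted p = 0.103). It was detected on 2 of the 3 siCtrl DMSO arrays, and without siCtrl DMSO replicate 2 its adjusted p was 0.0388. The plot of p53 and hypoxia genes shows the single members.

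**Figure D2:**
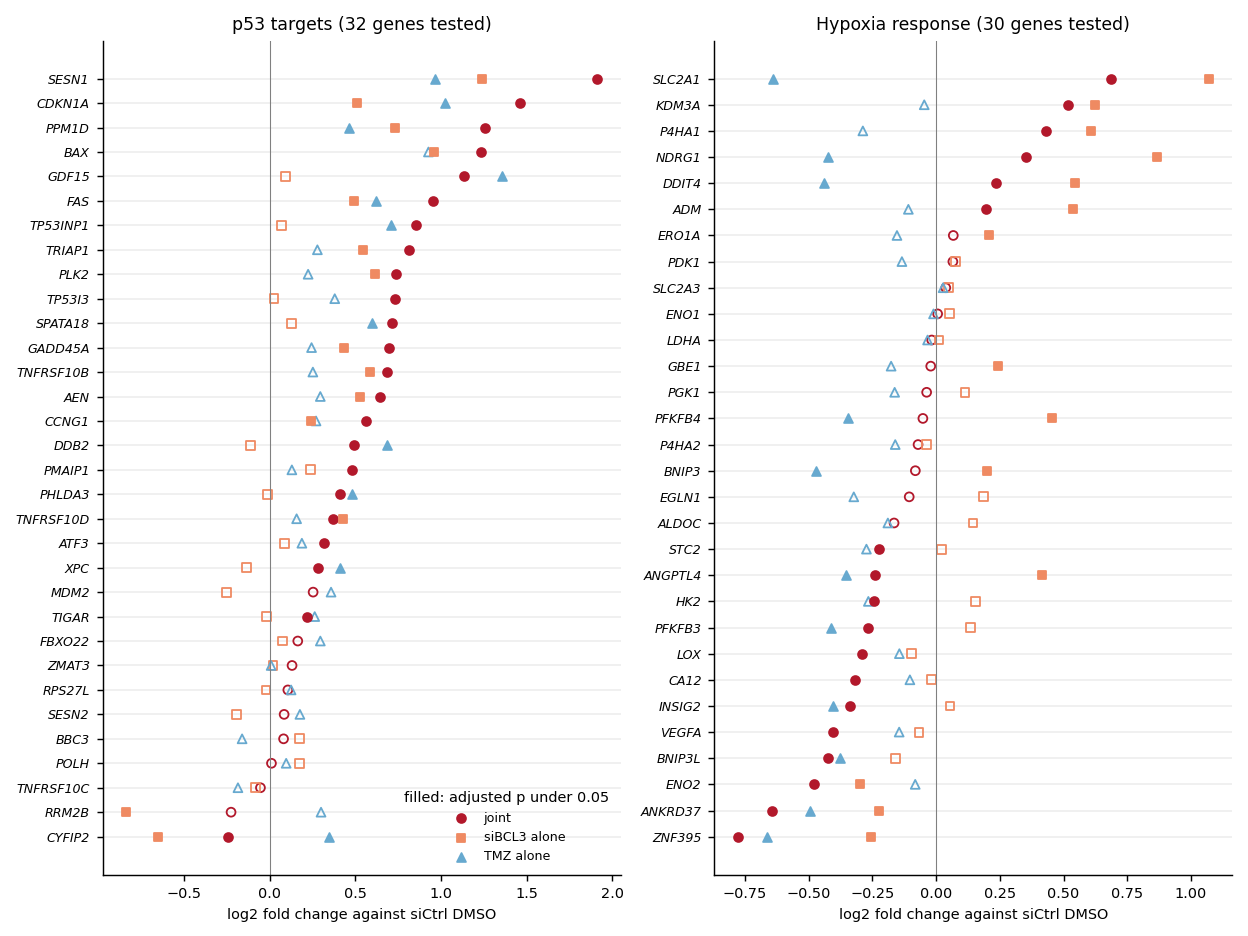
Log2 fold change against siCtrl DMSO cells (horizontal axis) of each tested member of the p53 list (left, 32 genes) and the hypoxia list (right, 30 genes), ordered by the joint effect. Red circles are siBCL3 TMZ (joint), orange squares siBCL3 DMSO and blue triangles siCtrl TMZ, filled where the limma adjusted p was under 0.05; on the left most red circles lie at or beyond the other symbols, and on the right the orange squares lie mostly right of 0 and the blue triangles left of it; under median scaling, which put all genes lower with knockdown, 2 of the squares are rises and 8 falls, while the hypoxia median lies 0.12 above that of all genes (0.11 as plotted).

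Of the S-phase genes tested, 54.1% fell jointly, beside 20.6% of all genes. The list of G1/S and DNA replication genes holds the E2F factors, the MCM helicase that unwinds origins, and the enzymes that supply and copy DNA. Of 37 tested, 20 fell and 3 rose jointly, with a median of -0.27. With knockdown alone 22 fell (59.5%, beside 20.1% of all genes) and 0 rose, also with a median of -0.27. With TMZ alone 0 fell and 0 rose by limma, with 4 and 4 at an unadjusted p under 0.05. CDC25A, the phosphatase that activates the kinases of S phase, measured 6.43, 6.46 and 6.53 on siBCL3 TMZ arrays and 6.45, 6.61 and 6.65 on siBCL3 DMSO arrays, against 7.67, 7.70 and 7.78 on siCtrl TMZ arrays and 7.88, 7.70 and 7.75 on siCtrl DMSO arrays. The siRNA separated the arrays and the drug did not, and the joint effect was -1.31 ± 0.07 (limma adjusted p = 3.47e-08). MCM6, a helicase subunit, fell jointly (-0.83) and with knockdown alone (-0.54), and siBCL3 TMZ cells lay -0.29 from siBCL3 DMSO cells (adjusted p = 0.034). The activator E2F2 (-0.87) and UHRF1, which guides maintenance methylation of DNA (-0.51), fell jointly.

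Of 40 tested genes that act in G2 and M phase, 13 fell (32.5%, beside 20.6% of all genes) and 2 rose jointly, with a median of -0.06, and 12 fell and 2 rose with knockdown alone (30% fell, beside 20.1% of all genes). KIF20A, a kinesin of the late spindle, had a joint effect of -1.11 ± 0.07, MKI67, the proliferation antigen, of -1.21 ± 0.08, BIRC5 (survivin) of -0.85 and the spindle kinesin KIF11 of -0.64. With knockdown alone they gave -1.13, -1.08, -1.01 and -0.74 in the same order, and none was called with TMZ alone. Of the 40 genes 2 rose with TMZ alone (5%, beside 0.468% of all genes) and 0 fell, with a median of 0.13. At an unadjusted p under 0.05 by limma, 17 lay above 0 and 0 below with TMZ alone. Relative to siCtrl TMZ cells, 23 of the 40 fell in siBCL3 TMZ cells, where 20.2% of all genes fell. Among 14 regulators of G1, 6 fell (42.9%, beside 20.6% of all genes) and 3 rose (21.4%, beside 21.5%) jointly. Beside CDK6 and CDKN1A, which rose, and CDC25A, which fell, the cyclin CCND1 fell jointly (-0.34) and with knockdown (-0.19).

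Of 21 genes of homologous recombination and the Fanconi anaemia pathway, which mend breaks and crosslinks, 6 fell and 4 rose jointly, 28.6% and 19% of them beside 20.6% and 21.5% of all genes, while 12 fell with knockdown alone (57.1%, beside 20.1% of all genes). Under median scaling 17 fell with knockdown alone, where 4758 of all 10686 genes fell. The median of the list then lay -0.29 from that of all genes, against -0.24 under quantile normalization. FANCL, the ubiquitin ligase of the Fanconi complex (-0.54), and PALB2, the partner of BRCA2 (-0.38), fell. FANCI, which that ligase modifies, rose by 0.53 ± 0.09 (limma adjusted p = 0.000396), with 0.18 for knockdown (adjusted p = 0.116) and 0.24 for TMZ (adjusted p = 0.214). Among 16 genes of mismatch, base excision and direct repair, 3 rose and 3 fell, 18.8% in each direction, which is no more than the 21.5% and 20.6% of all genes. The thymine glycosylase TDG rose by 0.81, the uracil glycosylase UNG fell by 0.57, with both single effects past the threshold (-0.32 and -0.35), and OGG1, which removes oxidized guanine, fell by 0.45. A second UNG probe gave -0.44 jointly (limma adjusted p = 0.00947), beside -0.055 with knockdown and -0.205 with TMZ. The mismatch recognition gene MSH3 rose by 0.26 by its brightest probe, while a second probe gave -0.15 (adjusted p = 0.0634).

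Among NF-kB target genes of inflammation 55% fell jointly, beside 20.6% of all genes, and few genes of the NF-kB subunits passed the test. NF-kB dimers bind a GGAANNNCC-like site in promoters, and BCL3 acts on dimers at such sites. The letters GGAANNNCC, on either strand, occurred in the 250 bases before the start of 7 of 16 tested members of the inflammatory list that have a RefSeq promoter window, of 25.2% of 8684 tested genes with a window, and in 17.1% of 35116 windows. They were found in 3 of 8 members that fell, 0 of 2 that rose and 4 of 6 that did not pass. Stretches of a pair of members that fell (IL6 and CXCL8) and of a pair that did not pass (CXCL2 and NFKBIA) are printed to show that the same letters stood before genes of either kind; these 4 were chosen after their values were seen. They run 5′ to 3′ on the strand of the gene and end upstream of its start, from RefSeq promoters on GRCh38.p14, with the matches in capitals; NFKBIA has 1 more match outside the stretch.
IL6 (chr7:22727093-22727171, plus strand): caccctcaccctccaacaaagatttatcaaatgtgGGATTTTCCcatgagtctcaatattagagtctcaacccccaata
CXCL8 (chr4:73740443-73740521, plus strand): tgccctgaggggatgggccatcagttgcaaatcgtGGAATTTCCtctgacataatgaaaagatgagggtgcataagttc
CXCL2 (chr4:74099205-74099283, minus strand): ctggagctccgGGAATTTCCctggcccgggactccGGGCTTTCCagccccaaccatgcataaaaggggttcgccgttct
NFKBIA (chr14:35404787-35404865, minus strand): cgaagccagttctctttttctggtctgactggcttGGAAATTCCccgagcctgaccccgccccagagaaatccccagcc

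Of 20 inflammatory NF-kB targets tested, 11 fell and 3 rose jointly, with a median of -0.46, beside 10 and 3 with knockdown alone, and 3 fell with TMZ alone, where 0.393% of all genes fell. The joint effect was -1.37 ± 0.11 for IL6, the interleukin of the acute phase, -0.05 ± 0.10 for the chemokine CXCL2 (limma adjusted p = 0.73) and 0.06 ± 0.06 for NFKBIA, the I-kappa-B alpha inhibitor (adjusted p = 0.49). CXCL8 (interleukin-8), a chemokine that draws neutrophils, measured 9.61, 9.95 and 9.83 on siBCL3 TMZ arrays, 10.19, 10.21 and 10.22 on siBCL3 DMSO arrays, 10.04, 10.12 and 10.15 on siCtrl TMZ arrays and 11.03, 10.88 and 10.81 on siCtrl DMSO arrays. The siBCL3 TMZ arrays were below all others and the siCtrl DMSO arrays above all others. Its joint effect was -1.11 ± 0.08 (limma adjusted p = 5.16e-07), beside -0.70 with knockdown and -0.80 with TMZ, and a second probe gave -1.59.

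CSF3, the growth factor of granulocytes, measured 4.44, 4.97 and 4.97 on siBCL3 TMZ arrays, 5.14, 5.00 and 4.91 on siBCL3 DMSO arrays, 5.87, 5.96 and 5.79 on siCtrl TMZ arrays and 6.92, 6.65 and 6.62 on siCtrl DMSO arrays. Both siBCL3 groups were low and overlapped, and CSF3 was detected on 2 of the 3 siBCL3 TMZ arrays. The joint effect was -1.94 ± 0.13 (limma adjusted p = 2.06e-07), beside -1.72 and -0.86 for the single effects. IL1B, a pyrogenic interleukin, fell in each comparison, with -1.74 ± 0.08 jointly, -1.37 with knockdown and -0.51 with TMZ. The urokinase gene PLAU fell jointly (-1.03) and with knockdown (-1.23). IL1A rose by 0.95 jointly and by 0.99 with knockdown, so that the interleukin-1 genes moved in opposite directions.

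Of 16 genes for NF-kB subunits, their inhibitors and kinases, 3 fell and 1 rose, beside the 20.6% and 21.5% of all genes. Beside BCL3 the transactivating subunit RELA fell by 0.48 ± 0.07, with 6.12, 6.14 and 5.97 on siBCL3 TMZ arrays against 6.54, 6.62 and 6.52 on siCtrl DMSO arrays. TNIP1, which restrains NF-kB through A20, fell jointly (-0.47) and with TMZ alone (-0.57), and knockdown alone gave -0.07 (limma adjusted p = 0.404). The kinase gene CHUK rose by 0.25 (adjusted p = 0.0313), a call lost without siBCL3 TMZ replicate 1 (0.23) or 3 (0.21) or siCtrl DMSO replicate 1 (0.20) or 2 (0.25). NFKB1, which encodes the p50 partner of BCL3, had a joint effect of 0.17 ± 0.07 (adjusted p = 0.0523), which passed the threshold in 7 of 24 alternatives, among them no background correction, both offsets of 50, trend and robust moderation and the fit without siBCL3 TMZ replicate 1 (0.22), and it rose by 0.32 with knockdown alone. CA2, a carbonic anhydrase, fell jointly (-0.35 ± 0.09) and with knockdown alone (-0.51), while a second CA2 probe gave a joint effect of -0.03 (adjusted p = 0.768).

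Interferon-response genes, which block viral replication and present antigen, fell more often than they rose. Of 33 tested, 11 fell (33.3%, beside 20.6% of all genes) and 2 rose jointly, with a median of -0.09, and relative to siCtrl TMZ cells 17 fell (51.5%, beside 20.2% of all genes). IFI44L fell by its brightest probe (-1.17) and by another (-0.26). The immunoproteasome subunits PSMB8 (-0.43) and PSMB9 (-0.59) fell by their brightest probes, though a second PSMB9 probe gave 0.08 (limma adjusted p = 0.512). Further PSMB8 probes gave -0.37 (limma adjusted p = 0.00148), -0.165 (0.193) and -0.12 (0.395). SAMD9L, an antiviral and growth-restraining gene, fell by 0.47 ± 0.06, with 6.82, 6.96 and 6.87 on siBCL3 TMZ arrays against 7.37, 7.28 and 7.42 on siCtrl DMSO arrays. None of these 4 passed the test with TMZ alone. Of the 33 genes 1 rose with TMZ alone and 0 fell, with a median of 0.12. At an unadjusted p under 0.05 by limma, 11 lay above 0 and 0 below with TMZ alone.

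In hypoxia-response genes more members rose than fell with knockdown alone and 0 rose with TMZ alone. They encode glucose transport, glycolysis, angiogenic factors and regulators of mitophagy, and are switched on by HIF, which binds a core of ACGTG. Of 30 tested, 6 rose (20%, beside 21.5% of all genes) and 12 fell (40%, beside 20.6%) jointly. With knockdown alone 11 rose (36.7%, beside 20.7% of all genes) and 3 fell (10%, beside 20.1%). With TMZ alone 0 rose and 11 fell (36.7%, beside 0.393% of all genes), with 0 above and 20 below at an unadjusted p under 0.05 by limma. Relative to siBCL3 DMSO cells, 12 fell in siBCL3 TMZ cells, where 0.459% of all genes fell, and relative to siCtrl TMZ cells 11 rose and 1 fell, where 18.6% of all genes rose. The median joint effect was -0.08. Under median scaling 2 rose and 13 fell jointly, where 569 of all 10686 genes rose and 2814 fell. With knockdown alone 2 rose and 8 fell under that scaling, where 244 of all genes rose and 4758 fell. Relative to the median of all genes, the median of the list with knockdown alone was 0.12 under median scaling and 0.11 under quantile normalization.

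SLC2A1, the glucose transporter GLUT1, measured 9.78, 9.68 and 9.67 on siBCL3 TMZ arrays and 10.12, 10.06 and 10.10 on siBCL3 DMSO arrays, against 8.42, 8.41 and 8.31 on siCtrl TMZ arrays and 8.98, 8.99 and 9.09 on siCtrl DMSO arrays. All 4 groups stood apart, with siBCL3 DMSO highest and siCtrl TMZ lowest. The joint effect of 0.69 ± 0.06 (limma adjusted p = 1.74e-06) stood beside 1.07 with knockdown and -0.64 with TMZ, whose sum was 0.43. ANKRD37, a HIF target of ankyrin repeats, measured 6.04, 6.01 and 6.05 on siBCL3 TMZ arrays, 6.45, 6.50 and 6.41 on siBCL3 DMSO arrays, 6.22, 6.25 and 6.08 on siCtrl TMZ arrays and 6.67, 6.74 and 6.64 on siCtrl DMSO arrays. Here siBCL3 TMZ arrays were lowest, and the joint effect was -0.64 ± 0.06, with both single effects below 0 (-0.23 and -0.50). ZNF395 had the same order, with -0.78 jointly, -0.26 with knockdown and -0.66 with TMZ, and the glycolytic enzyme ENO2 fell jointly (-0.48) and with knockdown (-0.30).

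The letters ACGTG, on either strand, occurred in the 250 bases before the start of 17 of 25 hypoxia members with a RefSeq window, of 29.8% of tested genes and in 18.5% of windows. They were found in 2 of 5 members that rose, 7 of 9 that fell and 8 of 11 that did not pass. The stretches around the last match are printed for ANKRD37, which fell, for BNIP3, a mitophagy receptor that did not pass (-0.08), and for DDIT4, an mTOR inhibitor, and P4HA1, a collagen prolyl hydroxylase, which rose by 0.23 and 0.43, to set genes of each outcome beside one another. The last 3 were chosen after their values were seen. The stretches run 5′ to 3′ on the strand of the gene, upstream of its start, on GRCh38.p14 from RefSeq, with matches in capitals, of which CACGTG matches on both strands.
ANKRD37 (chr4:185396663-185396737, plus strand): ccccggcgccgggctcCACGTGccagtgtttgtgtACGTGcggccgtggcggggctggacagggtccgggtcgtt
BNIP3 (chr10:131982017-131982091, minus strand): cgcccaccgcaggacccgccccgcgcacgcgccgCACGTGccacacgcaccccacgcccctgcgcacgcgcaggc
DDIT4 (chr10:72273764-72273838, plus strand): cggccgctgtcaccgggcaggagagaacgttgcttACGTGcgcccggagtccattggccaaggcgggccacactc
P4HA1 (chr10:73096913-73096987, minus strand): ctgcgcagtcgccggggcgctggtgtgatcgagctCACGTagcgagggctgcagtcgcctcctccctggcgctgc

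Of all genes 21.5% rose and 20.6% fell jointly, and the oxidative stress, unfolded protein and BCL2 lists lay near these shares. Under median scaling 569 of all 10686 genes rose and 2814 fell jointly. Of 24 genes of the NRF2 and oxidative stress response, 7 rose (29.2%) and 4 fell (16.7%), and under median scaling 4 rose and 5 fell, with the list's median 0.03 above that of all genes. AKR1B10, an aldo-keto reductase, measured 7.92, 7.94 and 7.95 on siBCL3 TMZ arrays, 7.40, 7.42 and 7.31 on siBCL3 DMSO arrays, 7.11, 7.03 and 6.96 on siCtrl TMZ arrays and 6.51, 6.61 and 6.48 on siCtrl DMSO arrays. The groups did not overlap, and the joint effect of 1.41 ± 0.06 (limma adjusted p = 5.51e-09) stood beside 0.85 with knockdown and 0.50 with TMZ. The iron-binding cofactor PIR rose by 0.56, and KEAP1, which holds NRF2 down, fell by 0.53.

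Of 35 genes of the unfolded protein response and ATF4 targets, 7 rose and 7 fell, 20% in each direction. The serine synthesis enzyme PSAT1 (-0.97), the chaperone HSPA5 of the endoplasmic reticulum (-0.83) and the stress factor DDIT3 (-0.56) fell, while the amino acid carrier SLC7A5 rose by 0.66. Of 19 heat shock and chaperone genes, 6 fell (31.6%) and 2 rose (10.5%). FKBP4, a co-chaperone of HSP90 (-0.93), HSP90AB1 (-0.35) and HSPA1B (-0.37), which has a near-identical copy that can share its probe signal, fell. HSPA4 gave 0.61 by its brightest probe and -0.43 by another, both past the threshold. Of 22 genes of the BCL2 family and caspases, 6 rose (27.3%) and 5 fell (22.7%), and under median scaling 2 rose and 6 fell, with the list's median -0.01 from that of all genes. BAX, APAF1 (0.55), which builds the apoptosome, and DIABLO (0.37), which blocks inhibitors of caspases, rose, and BAD fell by 0.49. Second probes of APAF1 and BAD gave -0.15 and -0.15, neither past the threshold. Further DIABLO probes gave 0.105 and 0.138 (limma adjusted p = 0.368 and 0.231), and the DIABLO call was lost under median scaling.

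Matrix and metabolic genes changed often and without a common direction. Of 32 genes of the extracellular matrix and adhesion, 10 rose (31.2%, beside 21.5% of all genes) and 12 fell (37.5%, beside 20.6%). The matricellular protein SPARC rose by 0.74 and the fibronectin receptor subunit ITGA5 by 0.72, while the hyaluronan receptor CD44 (-0.73) and the proteoglycan lumican, LUM (-0.93), fell. Further CD44 probes gave -1.3 (limma adjusted p = 2.5e-07) and -0.21 (0.101). Of 19 genes of cholesterol synthesis, 9 rose (47.4%) and 8 fell (42.1%). HSD17B7, MSMO1 and INSIG1 rose by 0.45, 0.41 and 0.40 by their brightest probes and DHCR7 fell by 0.49. Further probes gave 0.07 and -0.05 for MSMO1 (limma adjusted p = 0.54 and 0.569) and 0.19 for INSIG1 (0.106). The calls of MSMO1 and INSIG1 were lost under median scaling. Under median scaling 11 of the 19 passed the test, 2 of them as rises, where 569 of all 10686 genes rose and 2814 fell. The list's median then lay 0.15 above that of all genes. Of 34 ribosomal protein genes, 8 rose (23.5%) and 1 fell (2.94%), with a median of 0.08, and 3 passed under median scaling, where the median lay 0.14 above that of all genes. RPL14 rose by 0.55, RPL34 by 0.41, RPL5 by 0.40 and RPS15 by 0.38 by their brightest probes. Further probes gave 0.82 for RPL14, 0.06 for RPL34 (limma adjusted p = 0.617), and 0.21 (0.0238) and -0.135 (0.129) for RPS15. The calls of RPL34 and RPL5 were lost under median scaling. Ribosomal protein genes have many near-identical pseudogenes, so their probe signals are uncertain.

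**Figure D3:**
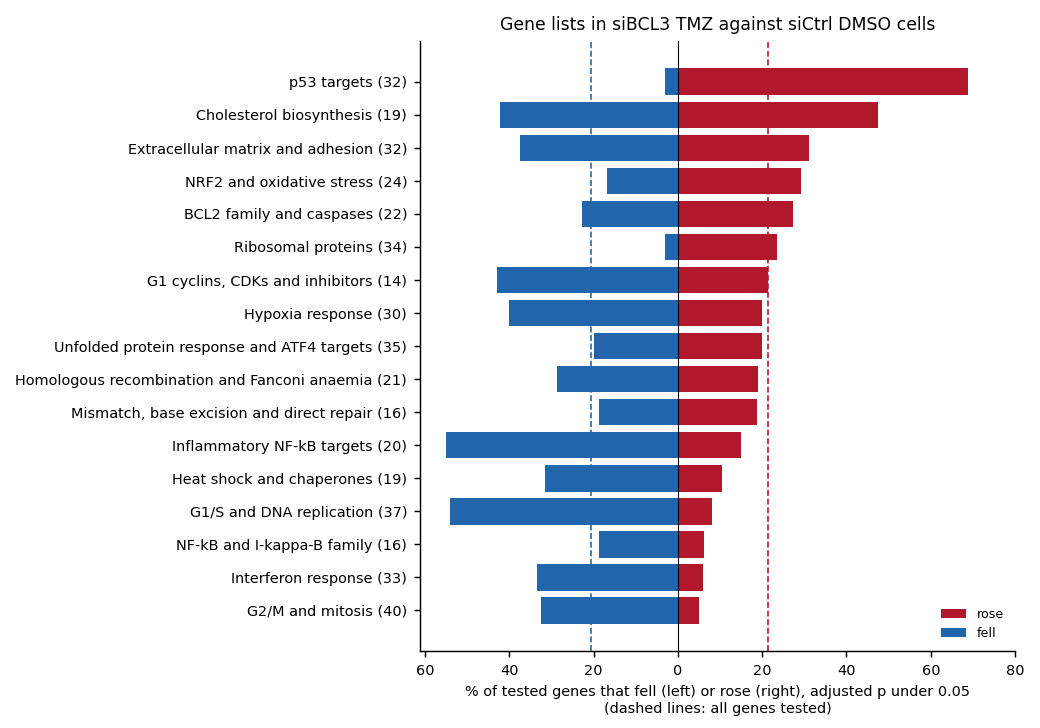
Share of the tested genes of each list (number in brackets) that rose (red, right of 0) or fell (blue, left of 0) in siBCL3 TMZ cells against siCtrl DMSO cells at a limma adjusted p under 0.05, for the 17 lists with at least 14 genes tested. Dashed lines mark all 10686 genes, of which 21.5% rose and 20.6% fell; the p53 list has the longest red bar, with 68.8%, and the inflammatory NF-kB list (55%) and the G1/S list (54.1%) the longest blue bars.

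Of 17 glial and glioma markers, 9 were detected and 8 were not. VIM, NES, CD44, SOX9, SLC1A3, EGFR and TNC were detected on all 12 arrays, CHI3L1 on 11 and OLIG2 on 9. GFAP, S100B, AQP4, SOX2, ALDH1L1, FABP7, PDGFRA and CDKN2A were detected on 0 arrays, among them the astrocyte markers GFAP, S100B, AQP4 and ALDH1L1. Of 9 glial and glioma markers tested 3 fell jointly by their brightest probes (CD44, NES with -0.62 and VIM with -0.32), 33.3% beside 20.6% of all genes. The summed linear signal of the list was 19170 to 20220 on siBCL3 TMZ arrays and 25530 to 26730 on siCtrl DMSO arrays. Such a sum weighs the brightest probes most and does not describe each member. Of the 9 markers 6 did not pass jointly, and the list's median was -0.09. Of 6 leukocyte markers tested, HLA-DRA (-0.47) and CSF1R (-0.47) fell, 33.3% beside 20.6% of all genes. The pan-leukocyte PTPRC and the T cell gene CD3E were detected on 0 arrays. Of 4 neuron and oligodendrocyte markers ENO2 and SNAP25 fell (50%, beside 20.6% of all genes), with RBFOX3, SYP, MBP and MOG on 0 arrays. EPCAM, the single epithelial marker tested, fell by 0.47 by its brightest probe, which was detected on 2 of the 3 siBCL3 TMZ arrays. A second EPCAM probe gave 0.06 (limma adjusted p = 0.816), and the call was lost with the mean of the probes. The summed leukocyte signal was 2489 to 2685 on siBCL3 TMZ arrays and 2817 to 3050 on siCtrl DMSO arrays, that of the neuron and oligodendrocyte markers 1414 to 1496 and 1807 to 1930, and that of EPCAM 22.6 to 31.1 and 35.6 to 41.4. Every sample is of 1 cell line, so these values are transcript levels in U87 cells and not shares of cell types. Fewer U87 cells that express a gene and less of its RNA per cell cannot be told apart in bulk samples. The part of these markers in the other results was not tested.

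The joint effect was then set against the sum of the single effects on the log2 scale, where a difference of 0 means that the fold changes multiply. No gene differed from the sum at an adjusted p under 0.05 by limma, with 718 genes, 6.72%, at an unadjusted p under 0.05. Across all genes the central 90% of the differences lay between -0.23 and 0.24, and the 95% interval of a gene reached a median of 0.24 to either side of its estimate. For 4483 of the 4491 genes that changed jointly (99.8%), that interval did not reach a departure of 1 log2 unit in either direction. That bound is wide, because the median size of the joint effect among these genes was 0.36. It therefore does not show that the single effects add up. Among the 24 largest joint effects the difference ran between -0.29 for SESN1 (95% interval -0.50 to -0.08) and 0.64 for CSF3 (0.24 to 1.03), and the interval included 0 for 20 of the 24.

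ADI1, an enzyme of methionine salvage, had the lowest p of that test. It measured 5.48, 5.45 and 5.49 on siBCL3 TMZ arrays and 5.03, 5.04 and 4.91 on siBCL3 DMSO arrays, against 4.80, 4.83 and 4.65 on siCtrl TMZ arrays and 4.94, 5.04 and 4.89 on siCtrl DMSO arrays. The siBCL3 TMZ arrays stood above the other 9, which had overlapping siBCL3 DMSO and siCtrl DMSO values. The joint effect was 0.51 ± 0.07, the sum -0.17 and their difference 0.68 (95% interval 0.48 to 0.89, limma adjusted p = 0.0775). ADI1 was dim, and was detected on 2 of the 3 siCtrl TMZ arrays. The next were PTGES3, a co-chaperone of HSP90, with a difference of 0.58 (adjusted p = 0.145), the zinc finger gene ZNF585A with 0.70 (0.347), the protease TMPRSS12 with 0.74 (0.433) and the cancer-testis gene SSX3 with -0.58 (0.433). PTGES3 measured 8.10, 8.06 and 8.09 on siBCL3 TMZ arrays, 7.81, 7.88 and 7.84 on siBCL3 DMSO arrays, 7.67, 7.66 and 7.70 on siCtrl TMZ arrays and 8.13, 8.03 and 7.88 on siCtrl DMSO arrays. The siCtrl TMZ arrays were the lowest, and the siBCL3 TMZ arrays lay within the range of the siCtrl DMSO arrays. Without siCtrl DMSO replicate 3, PTGES3 passed the test.

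A stricter question was whether the combination went beyond all other groups, so that siBCL3 TMZ cells differed in 1 direction from siBCL3 DMSO, siCtrl TMZ and siCtrl DMSO cells alike. By limma, with the largest of the 3 p-values adjusted over all genes, 9 genes were higher (0.0842% of genes) and 2 lower (0.0187%), 0.103% together. The p53 targets SESN1, PPM1D and CDKN1A were among the 9, with smallest differences of 0.67, 0.53 and 0.44 from any other group. The others were AKR1B10 (0.56), BAMBI (0.54), a pseudoreceptor that blocks TGF-beta signalling, ACTA2 (0.48), smooth muscle actin, ADI1 (0.48), MYLIP (0.45), the ubiquitin ligase of the LDL receptor, and CYP26B1 (0.41), which degrades retinoic acid. CDCA7, a MYC and E2F target of S phase, was lower by at least -0.39, and HBEGF, a growth factor of the EGF receptor, by at least -0.36.

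ACTA2 measured 10.65, 10.74 and 10.66 on siBCL3 TMZ arrays, 10.17, 10.17 and 10.25 on siBCL3 DMSO arrays, 9.95, 9.94 and 9.93 on siCtrl TMZ arrays and 9.37, 9.45 and 9.43 on siCtrl DMSO arrays. HBEGF measured 7.91, 8.03 and 8.07 on siBCL3 TMZ arrays, 8.38, 8.33 and 8.39 on siBCL3 DMSO arrays, 8.88, 8.80 and 8.73 on siCtrl TMZ arrays and 8.98, 8.93 and 8.96 on siCtrl DMSO arrays. In both genes the 4 groups stood in the same order of distance from siCtrl DMSO cells, with no overlap. SESN1, AKR1B10 and ACTA2 kept this call in every setting run. The count was 4 without siBCL3 TMZ replicate 1, without siBCL3 TMZ replicate 3 or without siBCL3 DMSO replicate 2, 5 without siBCL3 DMSO replicate 1, 6 without siBCL3 TMZ replicate 2, and 7 without siBCL3 DMSO replicate 3 or siCtrl TMZ replicate 2. 

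**Figure D4:**
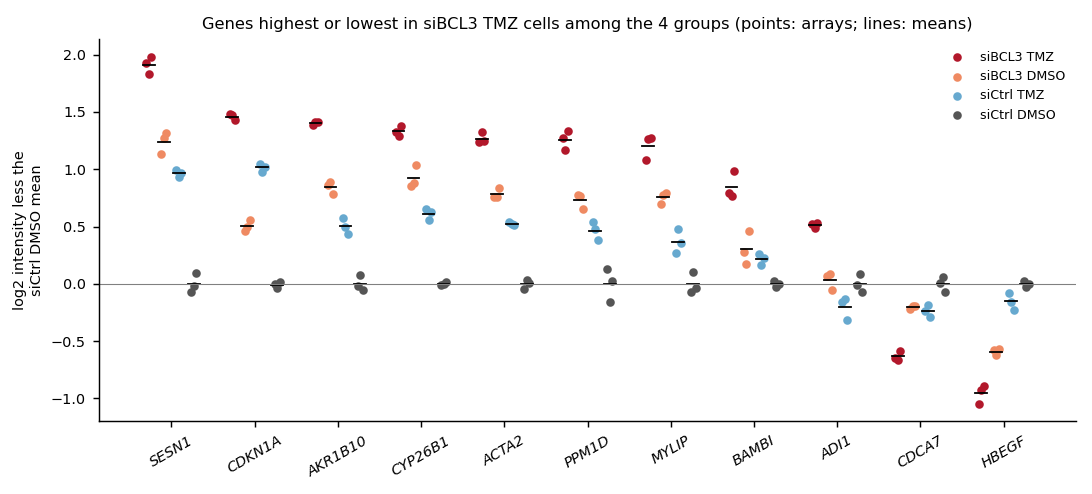
Log2 intensity less the mean of the siCtrl DMSO arrays (vertical axis) of the 9 genes higher and 2 genes lower in siBCL3 TMZ cells than in each other group; points are the 12 arrays, black lines group means of 3. In each gene the red siBCL3 TMZ points lie beyond the points of the other 3 groups.

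Genes that each treatment moved by itself fell into those pushed the same way and those pushed apart. Both single effects passed the test in the same direction for 33 genes (0.309% of genes), 19 higher and 14 lower, all of which were called jointly, and in opposite directions for 27 (0.253%), of which 15 were called jointly. The first 8 of those pushed the same way, in order of the weaker p and leaving out uncharacterised models, were SESN1, CYP26B1, ACTA2, CDKN1A, AKR1B10, CXCL8, AARS2 and CSF3. CYP26B1 had 1.33 jointly, beside 0.92 and 0.61, and AARS2, the mitochondrial alanyl-tRNA synthetase, 1.11 jointly, beside 0.48 and 0.74. By its brightest probe the joint effect of CXCL8 lay 0.39 above the sum of its single effects (95% interval 0.14 to 0.64, limma adjusted p = 0.619), that is, nearer to 0. For the second CXCL8 probe this difference was 0.06.

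The first 8 of those pushed apart were SLC2A1, MYC, STOM, F3, TNFRSF14, TUFT1, NIM1K and TRIM22. F3, tissue factor, which starts coagulation, rose jointly (1.63 ± 0.07) and with knockdown (2.12), and fell with TMZ (-0.47). It measured 8.52, 8.60 and 8.53 on siBCL3 TMZ arrays, 9.00, 9.08 and 9.03 on siBCL3 DMSO arrays, 6.38, 6.43 and 6.54 on siCtrl TMZ arrays and 6.90, 6.82 and 7.04 on siCtrl DMSO arrays. Both siRNA states showed the lower value under TMZ, without overlap. MYC, the growth-promoting transcription factor, had -0.05 jointly (adjusted p = 0.542), 0.43 with knockdown and -0.41 with TMZ by its brightest probe, and a second probe gave a joint 0.58. STOM, a membrane scaffold, had -0.19 jointly (adjusted p = 0.0889), -0.88 with knockdown and 0.61 with TMZ. Its joint fall passed the threshold in 7 of 24 alternatives, and a second STOM probe gave a joint -0.47 (limma adjusted p = 0.00302). 

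TNFRSF14, a receptor of the TNF family, had joint, knockdown and TMZ effects of -0.06, -0.59 and 0.61, and the kinase gene NIM1K of 0.05, 0.68 and -0.71. For these genes the treated state with both agents was near siCtrl DMSO cells (limma adjusted p = 0.582 and 0.736), which does not show that the levels were equal. TUFT1 rose by 0.54 jointly, with 0.78 and -0.34. TRIM22, an antiviral gene, rose by 0.16 jointly (adjusted p = 0.0497), with -0.38 and 0.57, a call kept in 8 of 24 alternatives and lost, among others, with the replicate block, cyclic loess, trend and robust moderation and only the 6 arrays compared. Leaving out any array but siBCL3 TMZ replicate 1 or siCtrl DMSO replicate 2 also lost it, and the joint value was -0.03 under median scaling. None of the 8 differed from the sum of its single effects at an adjusted p under 0.05, with 95% intervals of the difference such as 0.07 to 0.43 for SLC2A1 and -0.24 to 0.10 for MYC.

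**Figure D5:**
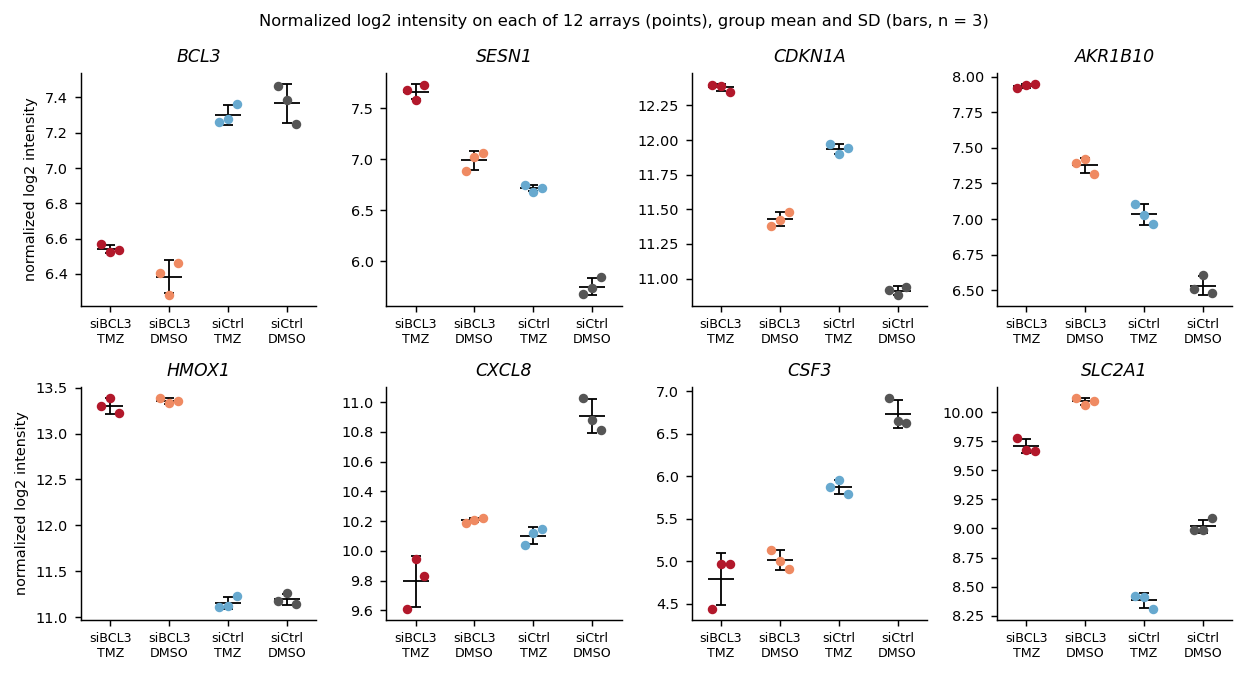
Normalized log2 intensity (vertical axis) on each array (points) of siBCL3 TMZ, siBCL3 DMSO, siCtrl TMZ and siCtrl DMSO cells, left to right, with group mean and SD (bars, n = 3). HMOX1 splits by siRNA alone, BCL3 splits by siRNA with the siBCL3 TMZ arrays above the siBCL3 DMSO arrays, SESN1, CDKN1A and AKR1B10 are highest and CXCL8 is lowest in siBCL3 TMZ cells, CSF3 is low in both siBCL3 groups, and SLC2A1 is lower with TMZ in both siRNA states.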

How the data were processed

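Bead-averaged probe intensities and detection p-values of 12 arrays were used as deposited; per the file headers and the values, the authors had not normalized them (72.8 to 20797.5, linear scale). The headers do not name the samples of the detection p-value columns, so each was paired with the intensity column against which it fell most strongly. A deposited table of intensities that the authors had normalized, judged from the values, served as an alternative. Software and settings of the scan were not given in the sources used here. Per the labels' protocols, polyadenylated RNA was labelled as biotin cRNA. Probe names came from the platform annotation: 30112 probes had 1 symbol, 8 several and 17200 none.

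Background correction and quantile normalization to log2 used neqc (limma 3.58.1, R 4.3.3) with an offset of 16. Probes detected at p under 0.01 on at least 3 arrays were kept, and the brightest probe represented a gene. A model of 4 group means with 8 residual degrees of freedom gave each contrast, with 2-sided Benjamini-Hochberg adjusted p-values over 10686 genes and a threshold of 0.05. Fold changes are on the offset scale, which understates the changes of dim genes; the number of arrays limits the precision. Tested on simulated data, the model called 78 of 100 genes shifted by 0.5 log2 units in the joint effect, 51 of 100 in the difference from the sum and 68 of 100 in the test against all other groups. The simulation set the 4 groups equal and shifted only siBCL3 TMZ, in these 100 genes and, by a larger amount, in further ones. Few genes were shifted there while many changed jointly in the data, so these counts are not the power of the tests above.

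Members and the 21 gene lists were chosen with earlier results of these data known. Genes named are BCL3, CDKN1A, MDM2, CA2, MGMT, RELA and NFKB1, the 12 largest joint rises and 12 largest falls without overlap, per list up to 4 members past the threshold by p, the 5 lowest p of the difference from the sum, up to 8 per direction beyond all groups, and up to 8 changed the same way and 8 oppositely by both single treatments, without uncharacterised models (1 gene named by this rule is not reported here); a few others are said to be chosen later or are members shown in the figures. Alternatives were another background correction or none, an offset of 50, median scaling, cyclic loess, the authors' values, other detection filters, averaged or separate probes, trend and robust moderation, a block for the replicate number, only the 6 arrays compared, and each array left out in turn.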

Additional observations from a re-analysis of the deposited data

Results flagged for a closer look

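Detected probes without a gene symbol lay outside the comparisons above and carried signal between the same groups. Of 3835 such probes, 1262 (32.9%) passed the limma test of siBCL3 TMZ against siCtrl DMSO cells, 734 higher and 528 lower, beside 5549 of 14270 detected probes with a symbol (38.9%). Which transcripts they measure was not tested.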

How the results depend on the processing

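The count of joint changes stayed within 1.5 times of 4491 in each setting run, 3792 to 4536 with 1 array left out, 3383 with median scaling and 4213 with only the 6 arrays compared. That of knockdown alone did too, 3610 to 4376 with 1 array left out. TMZ alone gave 92 genes and moved to 334 with normexp, 416 without background correction, 290 with an offset of 50, 148 with detection on all 12 arrays, 370 with trend and robust moderation, and 36 to 100 with 1 array left out. The sum of the single effects gave 2077 genes, 3295 with median scaling (64 rises, 3231 falls) and 1113 to 2131 with 1 array left out, lowest without siCtrl DMSO replicate 1 and 1241 without siCtrl DMSO replicate 2.

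The difference between joint effect and sum gave 0 genes, 1 with normexp, without background correction, with an offset of 50 and with trend and robust moderation, 11 with median scaling, and 0 to 1 with 1 array left out. Median scaling shifted the median of that difference over all genes to 0.25, from which its 11 calls, all above 0, are measured. siBCL3 TMZ against siBCL3 DMSO cells gave 113 genes, with 239, 287, 229 and 276 under normexp, no background correction, the offset of 50 and trend and robust moderation, and 54 to 102 with 1 array left out. Against siCtrl TMZ cells the count of 4141 moved to 2428 with median scaling and lay between 3384 and 4181 with 1 array left out. Genes beyond all other groups numbered 11, and 17, 37, 17, 33 and 7 with normexp, no background correction, the offset of 50, trend and robust moderation and median scaling, with 4 to 10 with 1 array left out. The cause of these moves was not tested.

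Of 110 named genes, 95 kept their side of the threshold of the joint effect in each setting run, and those past it their direction. The least stable calls were TRIM22, the same in 8 of 24 alternatives, ZNF585A in 9 of 23, NFKB1 and STOM in 17 of 24 and CHUK in 18 of 24. TRIM22 turned to -0.025 with median scaling. With the replicate block the joint effect called 4393 genes. Same-numbered arrays of different groups deviated with correlations of -0.15 to 0.19. These values do not show whether a number marks a shared culture or transfection, which the labels do not say. Signal near background limits the size of some effects: over the alternatives the joint effect ran between -2.09 and -0.83 for CSF3, 0.17 and 0.56 for ADI1 and 0.08 and 0.36 for MDM2, each detected on only 2 of 3 arrays in at least 1 group.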
